A study of Rattus norvegicus with 3 samples.

Results

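Genes of glycolysis, gluconeogenesis and glycogen metabolism were followed in rat liver on 3 arrays of spotted oligonucleotides, each hybridised with a pair of dyed cDNAs. The set was drawn up from textbook pathways as 40 genes, and a gene counted as found where a spot's symbol, a former symbol or its description named it. Of these, 33 were found among 5690 gene probes: 29 by the symbol in the files, 3 by a former symbol (Gapdh, Pkm and Pgk1) and 1 by its description (Ugp2). Pck1, Gys1, Pygm, Pygb, Gpi, Pfkp and Irs2 were not analysed here.

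The samples came from male rats of 2 strains, and the labels name no treatment. The spontaneously hypertensive rat (SHR) develops high blood pressure as it grows up. Wistar Kyoto (WKY) rats, the normotensive strain, served as controls. The 1-month strain array set SHR of 1 month against age-matched WKY, the 3-month strain array did the same at 3 months, and the SHR age array compared both ages within SHR. WKY tissue was pooled, and how many animals gave each RNA is not stated in the labels. Each comparison rested on 1 array without replicate or dye swap, so no p-value was computed and every difference is a value of that array. A dye effect of a single probe cannot be told apart from a strain or age difference.

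Liver both makes and uses glucose. Glucose-producing steps of gluconeogenesis (pyruvate carboxylase, fructose bisphosphatase, glucose-6-phosphatase) are opposed by glucose-using steps of glycolysis (hexokinases, phosphofructokinase, pyruvate kinase). The enzymes between them run in both directions. Glycogen is built by glycogen synthase from the UDP-glucose that Ugp2 makes, and is broken down by glycogen phosphorylase. Several steps have separate isoforms typical of liver and of muscle, and insulin, glucagon and dietary sugar set the balance between fasting and feeding.

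Values are log2 of second over first channel intensity after background correction and loess normalization, each the mean of the 2 spots of a probe. A positive value means higher in SHR on both strain arrays. On the SHR age array, a positive value means higher at 3 months according to the file headers. The labels, however, give the 1-month RNA there the dye Alexa647, which SHR carried when set against WKY, so the direction of the SHR age array is not settled and every sign given for it turns if the headers are wrong.

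Pooled over all probes, the within-probe SD of the paired spots was 0.056, 0.046 and 0.052 on the 1-month, 3-month and SHR age arrays, and covers only spotting and scanning. A ratio beyond 2 such SD (0.11, 0.091 and 0.10) is called larger than the spot spread below. Over all probes the log2 ratio had an SD of 0.23, 0.22 and 0.33 around a median of -0.01 on each array. Before normalization the median was -0.51, -0.36 and -0.65. The loess curve was fitted along intensity, so each ratio is relative to probes of similar intensity. It can therefore differ in sign from the ratio of the raw intensities given below. Nearly every probe gave signal: 11286, 11135 and 11267 of 11394 gene spots lay above background in both channels. All 12 hepatocyte markers did so, but so did the 8 skeletal muscle markers that were measured, and the probes of the islet hormones Ins1 and Gcg had raw intensities from 686 to 5062. Signal above background on these arrays therefore did not separate liver transcripts from those of other tissues. Since the samples were whole tissue, a lower share of a cell type and less RNA per cell cannot be told apart.

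Promoter sequences are shown for 3 genes whose ratios are described below: Pklr, the only member with strain ratios on both sides of 0 that each exceeded the spot spread, and Aldoc and Eno3, which were among the higher and the lower members on every array. Each is the 250 bases before the start of the gene in RefSeq's table for the GRCr8 assembly, 5′ to 3′ on the plus strand. They lie at chr2:176841014-176841263 (Pklr), chr10:63715294-63715543 (Aldoc) and chr10:55868936-55869185 (Eno3). Capitals mark the motifs found.
Pklr: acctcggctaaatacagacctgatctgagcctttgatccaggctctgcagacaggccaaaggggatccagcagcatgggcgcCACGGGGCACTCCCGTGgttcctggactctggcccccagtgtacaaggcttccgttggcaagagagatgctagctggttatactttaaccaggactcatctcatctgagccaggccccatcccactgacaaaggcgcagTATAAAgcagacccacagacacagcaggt
Aldoc: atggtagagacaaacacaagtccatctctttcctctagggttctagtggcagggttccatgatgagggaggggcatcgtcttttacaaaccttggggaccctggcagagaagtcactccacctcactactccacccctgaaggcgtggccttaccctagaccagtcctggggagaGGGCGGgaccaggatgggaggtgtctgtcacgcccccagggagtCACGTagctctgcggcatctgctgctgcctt
Eno3: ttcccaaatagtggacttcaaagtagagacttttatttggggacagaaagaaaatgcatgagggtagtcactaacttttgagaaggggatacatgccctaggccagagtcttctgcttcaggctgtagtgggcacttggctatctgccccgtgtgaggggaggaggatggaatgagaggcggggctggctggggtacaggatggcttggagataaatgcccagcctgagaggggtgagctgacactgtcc
Both strands were searched for 5 motifs, namely the carbohydrate response element of the liver pyruvate kinase promoter (CACGGG and CCCGTG with 5 bases between), the E-box CACGTG, the core ACGTG of hypoxia response elements (which every CACGTG also holds), the TATA box TATAAA and the GC box GGGCGG. The carbohydrate response element, through which sugar induces this promoter, stood 168 to 152 bases before the Pklr start, and Pklr's was the 1 window with these letters among 33469. A TATA box followed at 29 to 24 bases. In Aldoc, a GC box stood at 75 to 70 bases and ACGTG, on the other strand, at 31 to 27. The Eno3 window held none of the 5 motifs. Of the 30 members in the table, 4 held TATAAA (12.9% of all windows), 16 the GC box (30.5%), 11 ACGTG (16.6%) and 2 CACGTG (5.59%). A match describes the letters and is not evidence of binding.

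At the level of the whole set, few members were far apart between the RNAs compared. None of the 33 reached 1.5-fold on either strain array, where 2.6% and 2.07% of all probes did. On the SHR age array 4 of 33 did, against 7.47% of all probes: Fbp2 and Aldoc were higher (2.06% of all probes were) and Eno3 and Aldoa lower (5.42%). At a difference of 25% or more, the higher over the lower, the counts were 3, 5 and 13 of 33 (9.09%, 15.2% and 39.4%), against 13, 13.8 and 28.8% of all probes. The median over the 33 members was 0.07, 0.01 and 0.07. The shares were thus near or below those of all probes on the strain arrays and above them on the SHR age array, a difference that was not tested.

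**Figure D1:**
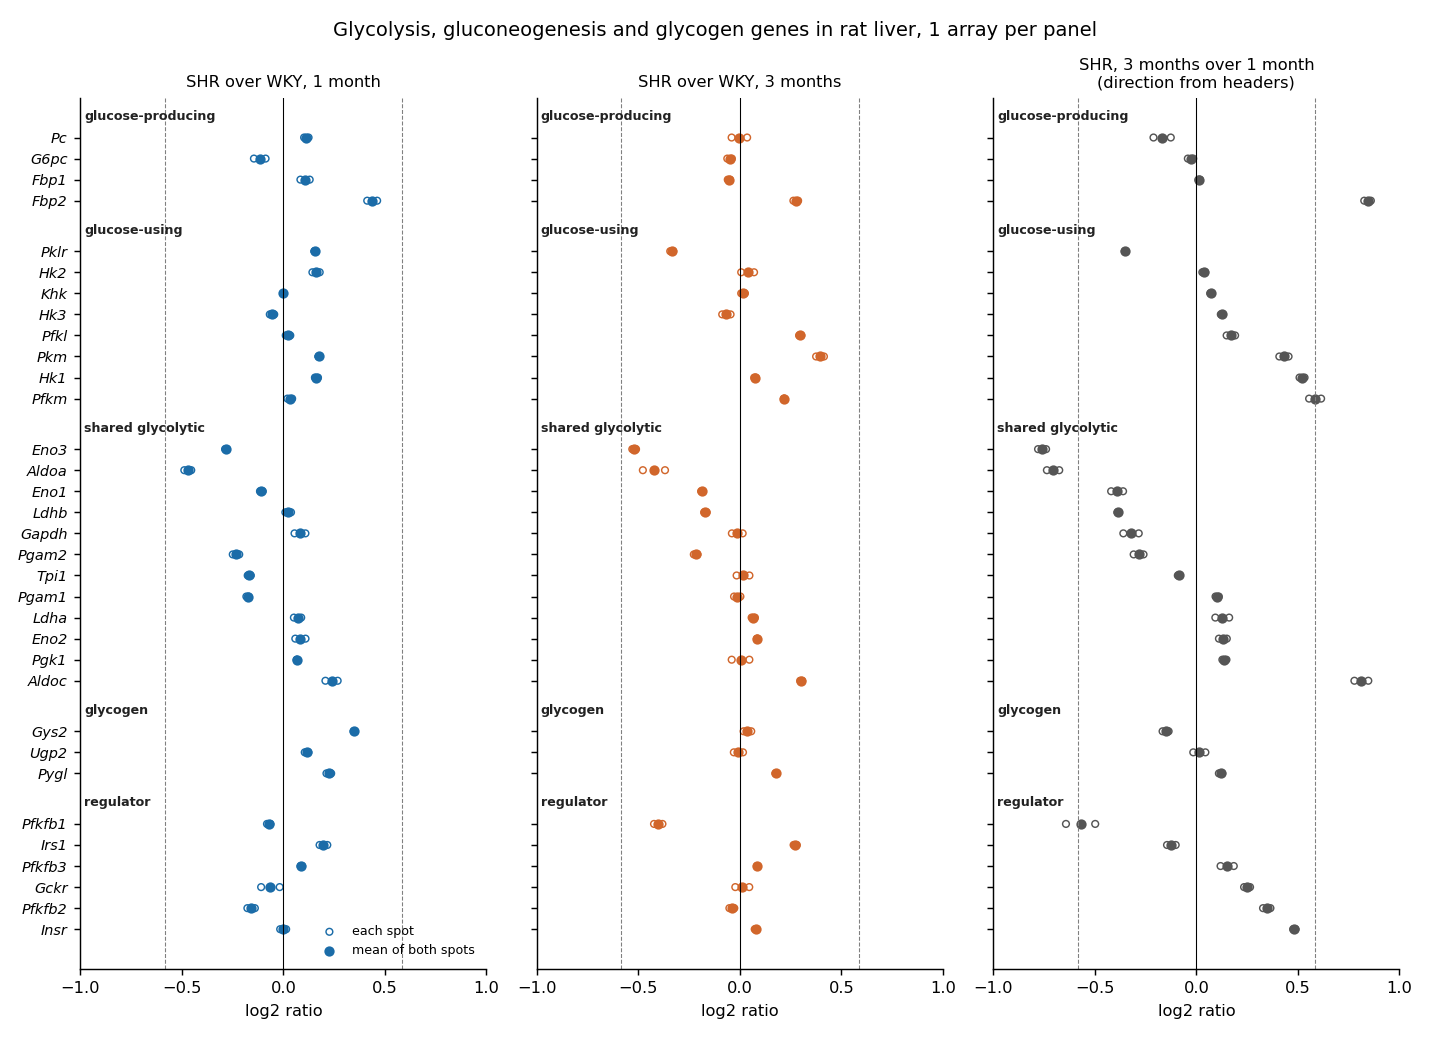
Log2 ratio (x axis) of the 33 member genes (y axis, ordered within each step by the SHR age array) on each of the 3 arrays; filled points are means of both spots, open points single spots, and dashed lines mark 1.5-fold. Points stay inside the dashed lines on both strain arrays. On the SHR age array the means of Fbp2, Aldoc, Eno3 and Aldoa lie outside them, as do single spots of Pfkm and Pfkfb1.

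Of the glucose-producing enzymes, those typical of liver were close to equal between strains. G6pc, the catalytic subunit of glucose-6-phosphatase that releases free glucose, had a log2 ratio of -0.12 at 1 month, -0.05 at 3 months and -0.03 on the SHR age array. Its raw intensities in the first and second channel were 1402 and 775, 1410 and 782, and 909 and 479. Only its 1-month value was larger than the spot spread, and narrowly so. Fbp1, the fructose bisphosphatase of liver, had 0.11, -0.05 and 0.01, all within that spread. Pc, pyruvate carboxylase, which starts gluconeogenesis in mitochondria, had 0.11, 0.00 and -0.17.

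Fbp2, the fructose bisphosphatase of muscle, was the member of this step that stood apart. Raw intensities in the first and second channel were 557 and 406 on the 1-month array, 739 and 585 on the 3-month array. On the SHR age array they were 427 and 393. Its log2 ratios were 0.44 (spots 0.46 and 0.41), 0.28 (0.29 and 0.26) and 0.84 (0.86 and 0.83). It was higher in SHR at both ages and higher at 3 months in the headers' direction, with every spot on the same side. On the 3-month array its spots lay on a raised local background of 95 and 121, against 44 and 48 on the 1-month array. With the brightest background spots left out before background correction and normalization, the 3-month value was 0.43. With median centring in place of loess the 1-month value was 0.055. The median of the 4 measured glucose-producing genes was 0.11, -0.03 and -0.01.

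Among the glucose-using enzymes, both forms of pyruvate kinase differed between the arrays in unlike ways. Pklr, the form of liver and red cells that makes pyruvate at the end of glycolysis, gave raw intensities of 19498 (WKY) and 20298 (SHR) at 1 month and 28452 and 23266 at 3 months. Its log2 ratios were 0.15 (spots 0.15 and 0.15) at 1 month and -0.34 (-0.33 and -0.34) at 3 months. Pklr was thus higher in SHR at 1 month and lower at 3 months, each by more than the spot spread, and it was lower on the SHR age array at -0.35. Opposite strain signs of this kind were found for 1 of 33 members and for 5.01% of all probes. Median centring turned the 3-month and the SHR age value to 0.08 and 0.18.

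Pkm, the pyruvate kinase of muscle and of growing cells, was higher in SHR at both ages. Raw intensities were 36238 and 55644 at 1 month, 33568 and 61807 at 3 months, and 29882 and 53137 on the SHR age array, close to the top of the scanner's scale in the second channel. The log2 ratios were 0.17, 0.39 and 0.43 (spots 0.41 and 0.45 on the SHR age array). Their size depended on the scaling, and with median centring the same values were 1.13, 1.24 and 1.48.

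The phosphofructokinases, which commit sugar to glycolysis, had larger strain ratios at 3 months than at 1 month. Pfkl, the liver form, had 0.02 at 1 month, 0.30 at 3 months and 0.17 on the SHR age array, and Pfkm, the muscle form, 0.03, 0.22 and 0.58. The Pfkm value on the SHR age array fell just short of 1.5-fold, and Pfkfb1, described below, was the next largest inside that limit. On the 3-month array the Pfkm spots had a local background of 175 and 244, and without the brightest background spots the value was 0.24. Pfkl lay at the bright end and reached 0.94, 1.09 and 1.14 with median centring.

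Hexokinases make glucose-6-phosphate, the entry to all these routes. Hk1, common to most tissues, was 0.16, 0.07 and 0.52, and its largest value was on the SHR age array, with spots at 0.51 and 0.53. Hk2, the insulin-responsive form of muscle and fat, had 0.16, 0.04 and 0.04. Hk3, found in blood cells, had -0.06, -0.07 and 0.13, and Khk, ketohexokinase, which phosphorylates fructose, 0.00, 0.02 and 0.07. The hexokinases therefore differed little between strains, and only Hk1 was 25% apart on any array. The median of the 8 measured glucose-using genes was 0.09, 0.06 and 0.15.

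The reversible middle of the pathway held the lowest values of the set, in aldolase and enolase. Aldoa, aldolase A, the muscle-type form, gave raw intensities of 12396 and 7068 at 1 month, 12344 and 6797 at 3 months, and 9463 and 4000 on the SHR age array. Its log2 ratios were -0.47 (spots -0.45 and -0.49), -0.42 (-0.37 and -0.48) and -0.71 (-0.74 and -0.68). Aldoa was thus lower in SHR at both ages, and it stayed negative in all 11 alternative settings on each array.

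Eno3, the enolase of muscle, gave raw intensities of 14169 and 9584, 21420 and 12699, and 17055 and 7874. Its log2 ratios were -0.28, -0.52 and -0.76 (spots -0.78 and -0.74). Eno3 had the lowest ratio of all members on the 3-month and SHR age arrays, and it was negative in all 11 alternatives, although the 1-month value was -0.06 with median centring. Eno1, the enolase of most tissues, went the same way with -0.11, -0.19 and -0.39. Eno2, the enolase of neurons, lay close to background (raw 56.6 and 55.4 against a background of 43.3 and 47.9 at 1 month), where its ratios of 0.08, 0.09 and 0.13 carry little information.

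Aldoc, aldolase C, known best from brain, was opposite in sign to Aldoa on every array. Raw intensities were 814 and 543, 552 and 431, and 456 and 411. The log2 ratios were 0.24 (spots 0.21 and 0.27), 0.30 (0.31 and 0.30) and 0.81 (0.78 and 0.85). Aldoc was higher in SHR at both ages, and on the 3-month array the value was 0.51 without the brightest background spots. With median centring the 1-month value was -0.07, so that direction depends on the scaling.

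Of the phosphoglycerate mutases, which move the phosphate group late in glycolysis, Pgam2 is the muscle form. It was lower on all 3 arrays, in the headers' direction on the SHR age array, at -0.23, -0.22 and -0.28, with raw intensities of 4905 and 2911 on the 1-month array. Pgam1, the form of most tissues, had -0.18, -0.01 and 0.10, and its bright probe had 0.52, 0.46 and 0.84 with median centring.

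Among the other triose and lactate enzymes, Tpi1 at 1 month and Ldhb at 3 months had strain ratios larger than the spot spread, both lower in SHR. Tpi1, triosephosphate isomerase, had -0.17, 0.02 and -0.09, and Pgk1, phosphoglycerate kinase, 0.07, 0.00 and 0.14. Ldha, the lactate dehydrogenase subunit of muscle and liver, had 0.07, 0.07 and 0.13. Ldhb, the heart-type subunit, had 0.02, -0.17 and -0.39, and the 3-month value was -0.26 without the brightest background spots. Gapdh, which links the sugar phosphates to energy recovery, had 0.08, -0.01 and -0.32. A second probe, described as highly similar to Gapdh, gave -0.27, -0.39 and -0.28, so the 2 probes disagreed on the strain arrays by more than the spot spread. The median of the 12 measured genes of shared steps was -0.04, -0.01 and -0.19.

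The glycogen genes were higher in SHR at 1 month. Gys2, the glycogen synthase of liver, gave raw intensities of 5210 (WKY) and 4783 (SHR) at 1 month, 5495 and 3803 at 3 months, and 4050 and 2290 on the SHR age array. Its log2 ratios were 0.35 (both spots), 0.04 (0.06 and 0.02) and -0.15 (-0.17 and -0.14). The 1-month value exceeded the spot spread, the 3-month value did not, and the 1-month value ranged from 0.34 to 0.38 over the 11 alternatives.

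Pygl, the glycogen phosphorylase of liver, which frees glucose phosphate from glycogen, was 0.22, 0.18 and 0.12. Raw intensities were 2527 and 1939, 2279 and 1622, and 2090 and 1348. All 3 values exceeded the spot spread, and the 3-month value was 0.00 with median centring. Ugp2, which makes the UDP-glucose that glycogen is built from, was 0.11, -0.01 and 0.01. The median of the 3 measured glycogen genes was 0.22, 0.04 and 0.01.

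Among the regulators, Pfkfb1 and Irs1 had strain ratios furthest from 0, both at 3 months. Pfkfb1, the liver form of the enzyme that makes and removes fructose bisphosphate signals for phosphofructokinase, gave raw intensities of 18969 and 16282 at 1 month, 20302 and 13030 at 3 months, and 16774 and 8999 on the SHR age array. Its log2 ratios were -0.07 (spots -0.08 and -0.06), -0.40 (-0.38 and -0.42) and -0.57 (-0.50 and -0.64). The 1-month value lay within the spot spread and turned to 0.29 with median centring, while the others stayed negative in all 11 alternatives.

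Other forms of the enzyme had smaller strain ratios at 3 months but not at 1 month. Pfkfb2, the heart form, had -0.16, -0.04 and 0.35. Pfkfb3, an inducible form, lay close to background (raw 55.7 and 52.1 at 1 month) with 0.09, 0.09 and 0.15. Gckr, a regulatory protein of glucose uptake into liver metabolism, had -0.06, 0.01 and 0.25.

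Of the insulin signalling genes, Insr, the insulin receptor, had 0.00, 0.08 and 0.48, with raw intensities of 1843 and 1531 on the SHR age array. Its strain ratios did not exceed the spot spread, and its ratio on the SHR age array did. Irs1, the receptor's first docking protein, was higher in SHR at both ages at 0.20 and 0.27, and -0.12 on the SHR age array. Its 3-month spots had a local background of 74 and 111, and the value was 0.33 without the brightest background spots. The median of the 6 measured regulators was -0.03, 0.04 and 0.20.

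Liver and muscle isoforms were compared next, as 3 of 5 planned pairs were measured. The liver form minus the muscle form was -0.02, -0.73 and -0.78 for pyruvate kinase (Pklr and Pkm), and -0.33, -0.33 and -0.83 for fructose bisphosphatase (Fbp1 and Fbp2). For phosphofructokinase (Pfkl and Pfkm) it was -0.01, 0.08 and -0.41. The median over the pairs was -0.02, -0.33 and -0.78, and the muscle form had the higher ratio in 2 of 3 pairs on the 3-month array and in all 3 on the SHR age array in the headers' direction. The phosphofructokinase difference turned to 0.82, 0.92 and 0.50 with median centring, and that of fructose bisphosphatase stayed negative in all 11 alternatives.

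**Figure D2:**
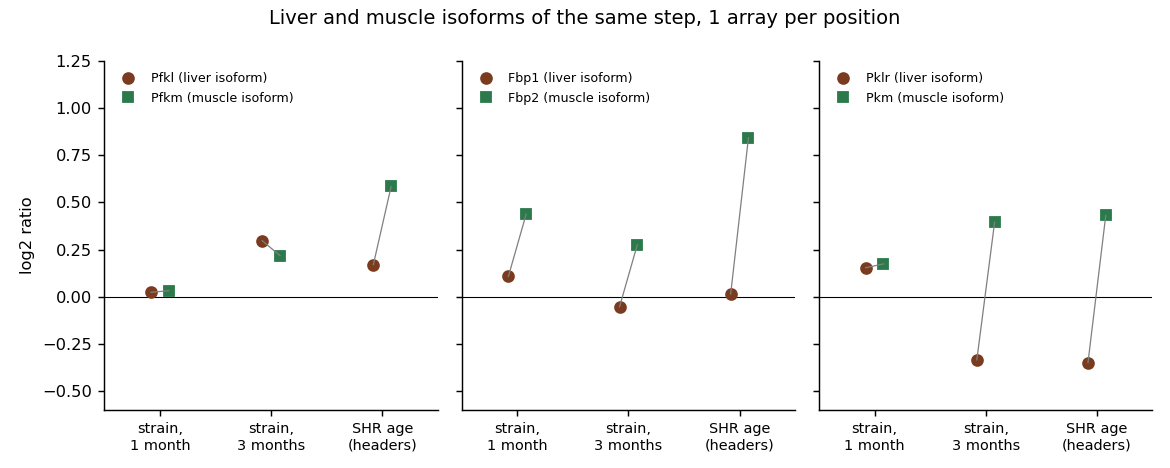
Log2 ratio (y axis) of liver isoforms (circles) and muscle isoforms (squares) of 3 enzymes on the 3 arrays (x axis, 1 array per position, direction of the SHR age array from the headers). Pklr minus Pkm is -0.73 on the 3-month and -0.78 on the SHR age array, and Fbp2 lies above Fbp1 on every array.

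Muscle forms did not share a direction. Fbp2 and Pkm were higher in SHR at both ages, whereas Aldoa, Eno3 and Pgam2 were lower at both. The 8 measured of 13 skeletal muscle markers had medians of 0.06, 0.05 and 0.09, and ranged from -0.18 to 0.21, -0.16 to 0.49 and -0.17 to 0.48. Their summed net intensity was 66151 and 64117 in the first and second channel at 1 month, 73754 and 73928 at 3 months. The SHR age array gave 53211 and 54186. The part of muscle transcripts in these ratios was not tested.

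With the SHR age array in the headers' direction, 7 of 33 members had the same sign on all 3 with every value larger than the spot spread, against 26.6% of all probes. They were Fbp2, Aldoc, Pkm and Pygl above 0, and Aldoa, Eno3 and Pgam2 below. With the sign of that array turned, none of these did so and 1 of 33 members, Irs1, would, against 1.2% of all probes. The SHR age array shares SHR RNA types with both strain arrays, so the arrays are not independent.

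The strain ratio at 3 months minus that at 1 month had a median of 0.00 over the 33 members, and 2 of them moved by 25% or more, against 13.4% of all probes. Those were Pklr, at -0.49 on the log2 scale, and Pfkfb1, at -0.33. Gys2 followed with -0.31 and Eno3 with -0.24. At the other end, Pfkl moved by 0.27, Pkm by 0.22, Pfkm by 0.19 and Tpi1 by 0.18. Both strain arrays are single arrays, so these changes were not tested.

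**Figure D3:**
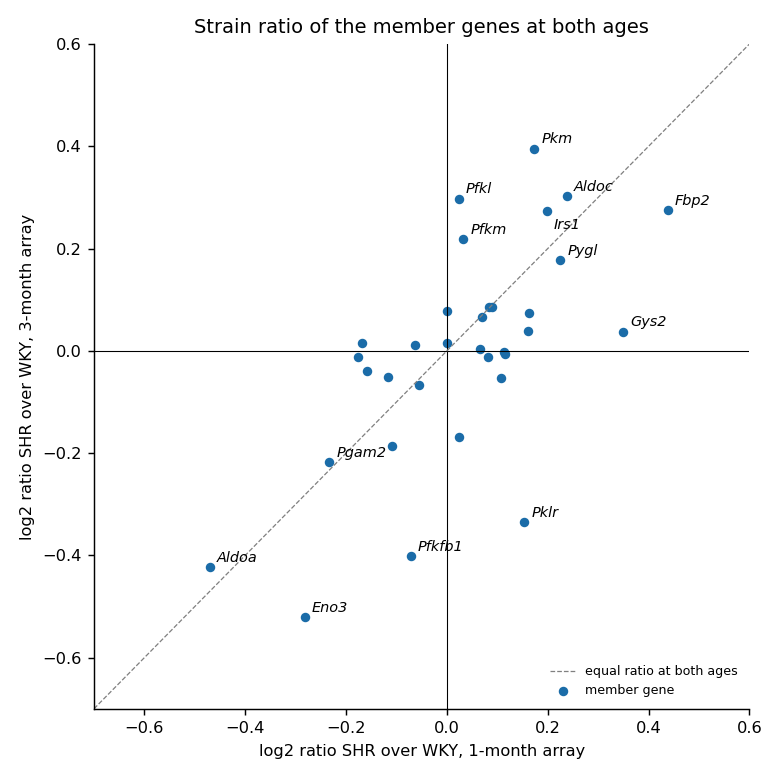
Log2 ratio of SHR over WKY on the 1-month array (x axis) and on the 3-month array (y axis) for the 33 member genes, 1 point each; the dashed line marks equal ratios. Aldoa and Eno3 lie low at both ages, Fbp2 and Aldoc high at both, and Pklr lies at 0.15 and -0.34.

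Genes that surround the pathway were taken from a list of 82 (transporters, the pyruvate gate of mitochondria, transaminases, hormones and transcription factors), of which 55 were measured. Their medians were -0.02, -0.04 and 0.03. At 25% or more, 2, 5 and 10 of them were apart, all of these shares (3.64%, 9.09% and 18.2%) below those of all probes. Mpc1, a subunit of the carrier that brings pyruvate into mitochondria, was the furthest apart at 3 months and on the SHR age array. Its raw intensities were 5671 and 3649 at 1 month, 6154 and 1922 at 3 months, and 5776 and 1656 on the SHR age array, and its log2 ratios -0.15, -0.95 and -1.13. Mpc1 was thus lower in SHR at both ages, with the larger value at 3 months, and lower at 3 months than at 1 month in the headers' direction.

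At 1 month the lowest of these genes were Got1 (-0.46), a transaminase, and Pdk2 (-0.41), a kinase that shuts pyruvate dehydrogenase. Igf1r, Ppp1ca and Cebpa followed with -0.28, -0.26 and -0.25, and Nr3c1, the glucocorticoid receptor, was the highest with 0.25. At 3 months Nr3c1 had 0.35, and Grb2 and Cebpb 0.33 each, while Ins1 had -0.45 and Pdk4 -0.32. On the SHR age array Gcg had 0.43, and Akt2 and Mdh2 had -0.47 and -0.42.

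**Figure D4:**
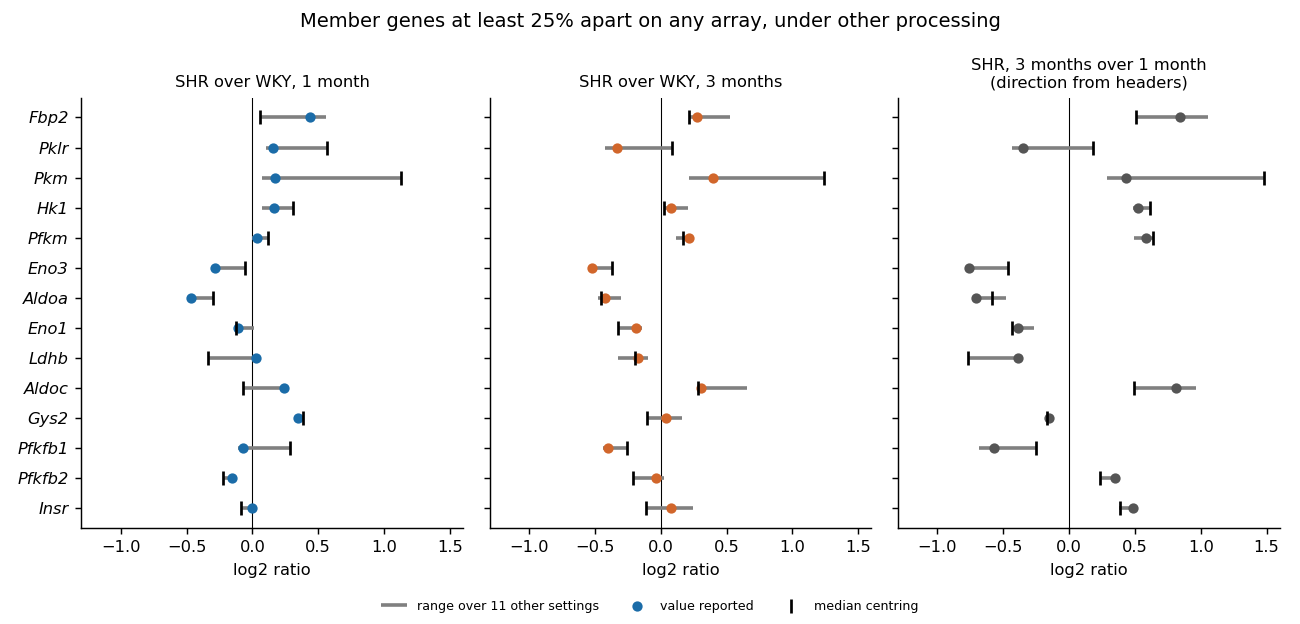
Log2 ratio (x axis) of the 14 members at least 25% apart on any array (y axis), as reported (points), with median centring in place of loess (ticks) and over the 11 alternative settings (bars). Bars of Aldoa and Eno3 stay below 0 on all 3 arrays, while the bar of Pklr crosses 0 on the 3-month and SHR age arrays and that of Pkm reaches 1.48.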

How the data were processed

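The deposited scanner files hold, per the file headers, a raw mean intensity of each spot in both channels, with the local background's mean intensity and SD, without normalization. Per the labels' protocols, 10 µg of total RNA was copied into cDNA with Alexa555 or Alexa647; no source used here names the quantification software. The authors also deposited log2 values of unstated scale and centring. Over single gene spots, before averaging, they correlated with the ratios used here at 0.71, 0.57 and 0.80, and their medians were 0.00, 0.01 and 0.00.

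Background was corrected with normexp (offset 50) in limma 3.58.1 under R 4.3.3 and ratios were normalized by global loess with a span of 0.3, control spots having no weight. A spot counted if its foreground lay over 2 SD above background in at least 1 channel, and both spots of a probe were averaged. On the 3-month array 196 spots of bright background raised the model's floor, which shrinks ratios of dim probes; values without them were added after seeing the data. Python 3.11.15 was used for tables (pandas 2.3.3, numpy 2.4.6) and plots (matplotlib 3.10.9). The steps were also run on simulated intensities with planted changes. That simulation held no dye effect of a single probe, so it cannot speak to that limit. With 1 array per comparison no test was made, and the number of arrays limits the precision of every value. Members were all named, and up to 6 genes per array of the surrounding list with the largest ratios; a few that this rule takes are not reported here. Members and lists were chosen with earlier results of these data known. Signs on the SHR age array follow the file headers, with the sign turned as an alternative.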

Additional observations from a re-analysis of the deposited data

Results flagged for a closer look

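Pklr had strain ratios on opposite sides of 0, with a log2 ratio of 0.15 at 1 month and -0.34 at 3 months, both spots agreeing on each array. The change was -0.49 and was not tested, since each age had 1 array. The 3-month value ranged from -0.43 to 0.08 over the 11 alternatives and was positive with median centring alone.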

How the results depend on the processing

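No paired analysis was possible because each comparison held 1 array. Taking either spot alone, keeping all spots or only those present in both channels, and an offset of 0 left every group median and count within the spot spread or 1.5 times. The largest movements came with median centring in place of loess. Members at least 1.5-fold apart then numbered 4, 3 and 11 on the 1-month, 3-month and SHR age arrays. The glucose-using median was 0.44, 0.12 and 0.63, and the glucose-producing median -0.056 at 1 month and -0.11 on the SHR age array. The shared glycolytic median was -0.12 at 1 month and -0.17 at 3 months, the glycogen median 0.38 at 1 month, and liver minus muscle -0.22 at 1 month. Signs turned for Pygl (-0.0038) and Pklr (0.081) at 3 months. At 1 month they turned for Aldoc (-0.070), Hk2 (-0.12) and Pgam1 (0.52). On the SHR age array they turned for Gckr (-0.13), Pklr (0.18), Pc (0.049) and Ldha (-0.21).

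With loess per subgrid, the 3-month medians were 0.031 for glucose-producing, 0.11 for glucose-using and 0.12 for glycogen genes, and liver minus muscle was -0.19. The 1-month glucose-producing median was 0.053, the SHR age values were -0.11 for shared glycolytic genes and -0.72 for liver minus muscle, and Hk3 was -0.0040 there. With the authors' log2 values the 3-month medians were 0.088 for glucose-producing, 0.18 for glucose-using and 0.15 for glycogen genes, and 1 member reached 1.5-fold. Liver minus muscle was -0.39 at 3 months and -0.73 on the SHR age array, the shared glycolytic median there -0.11, and Pfkfb3 -0.055. Liver minus muscle at 3 months was -0.58 with plain subtraction, -0.59 with no background correction and -0.49 without bright background. Plain subtraction also gave a 3-month glucose-using median of 0.10 and 1 member at 1.5-fold. With the sign turned, the SHR age medians were -0.15 for glucose-using and 0.19 for shared glycolytic genes, and 0.78 for liver minus muscle. The causes were not tested. Of 58 member ratios larger than the spot spread, 47 kept their sign in the 7 settings of background correction and normalization, the authors' values among them; turning the sign of the SHR age array, which reverses all of its ratios, is not counted there.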

Other observations

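Probes whose descriptions named an enzyme of the set without its isoform were kept apart. A probe for a fragment of glycogen phosphorylase had log2 ratios of -0.12, 0.08 and 0.13 on the 1-month, 3-month and SHR age arrays, at raw intensities of 80.8 and 62.4 on the first. A probe for 6-phosphofructo-2-kinase had 0.04, 0.00 and 0.02.

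Of the hepatocyte markers, Alb, which encodes albumin, had log2 ratios of -0.15, -1.01 and -1.10. The 12 hepatocyte markers together had medians of -0.06, -0.12 and -0.19, and 6, 7 and 9 of them were below 0. Tat, a transaminase of liver, went the other way with 0.16, 0.38 and 0.49. The 7 stellate cell and matrix markers had medians of -0.20, -0.20 and -0.28. The part of cell composition in the ratios of the glucose genes was not tested.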
